A study of Mus musculus with 28 samples.

Results

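The genes described are 36 components of transforming growth factor beta (TGF-beta), activin and bone morphogenetic protein (BMP) signalling, chosen by symbol from the probe annotation of the array: ligands, receptors, secreted antagonists, SMAD proteins with their corepressors, and common target genes. All 36 were measured, each by 1 probe set, out of 19938 genes with a probe set of their own. Of these, 35 passed the filter on dim signal and were tested among 12211 genes. Bmp7 lay below the array median on all 28 arrays and was not tested.

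TGF-beta and activin bind type II and type I receptor kinases that phosphorylate SMAD2 and SMAD3. BMPs act through a related set of receptors on SMAD1 and SMAD5, and both branches share SMAD4. Secreted antagonists trap the ligands outside the cell, and SMAD6 and SMAD7 damp the pathway inside it. In fibroblasts the TGF-beta branch is known for driving matrix production, and BMPs are known for their part in heart formation.

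The study reprogrammed mouse embryonic fibroblasts towards induced cardiomyocytes with lentiviruses that carry cardiac transcription factors, and measured RNA on 28 arrays. The groups that received factors were DMNT (MYOCD, MEF2C, NKX2.5 and TBX5, n = 4), DMT (MYOCD, MEF2C and TBX5, n = 4), HNGMT (Hand2, NKX2.5, GATA4, MEF2C and TBX5, n = 3), HGMT (Hand2, GATA4, MEF2C and TBX5, n = 3), NGMT (NKX2.5, GATA4, MEF2C and TBX5, n = 6) and GMT (GATA4, MEF2C and TBX5, n = 5). The fibroblasts called 0F received no factor (n = 3). The cells given factors also carried the doxycycline transactivator rtTA and a troponin T promoter reporter (TroponinT-GCaMP5-Zeo), were given 2 μg/mL doxycycline, and were selected for 7 days with 300 μg/mL zeocin. All samples were collected at day 21. The labels conflict on 0F: they say that these cells had no transcription factor, but they also give them the source name of zeocin-selected cells and the same protocol text as every other sample. Whether 0F received the rtTA and reporter viruses, the medium, doxycycline or selection is therefore not settled, and a comparison with 0F may span any of these as well as the factors, which cannot be told apart. Zeocin keeps the cells in which the reporter's promoter is active, so the samples given factors are selected populations. The labels call the samples independent biological replicates.

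The arrays fell into 3 sets by the distribution of their values, and no label names these sets. Set 1 held 8 arrays (NGMT replicates 1 to 3, GMT replicates 1 and 2, and the 3 arrays of 0F), set 2 held 15 (DMT 1 to 3, HNGMT, HGMT, NGMT 4 to 6 and GMT 3 to 5) and set 3 held 5 (DMNT and DMT replicate 4). Array medians were 6.68 to 6.75 in set 1, 6.86 to 6.95 in set 2 and 7.64 to 7.65 in set 3, in log2 signal. Every comparison was therefore made within a set unless stated. GMT and NGMT were present in sets 1 and 2, and after quantile normalization 27 of the 35 tested members differed between these sets, beside 72.2% of all genes tested. The differences of set 2 minus set 1 were largest for Tgfbi (1.79), Chrdl1 (-1.69), Bmp4 (-1.63) and Grem1 (-1.14) on the log2 scale, so a level in one set was not read against a level in another. Many values were identical between arrays, with 76.6% of genes in set 3 holding the same value on at least 2 arrays, and Acvr1 (9.95) and Smad6 (7.97) were identical on all 5 arrays there. The spread between replicates is understated where that holds, and no source used here gives the cause. HNGMT replicate 1 stood apart from replicates 2 and 3, with correlations over all genes of 0.977 and 0.972 against 0.996 between those 2 arrays. GMT replicate 5 of set 2 also stood apart, with 0.990 and 0.991 against replicates 3 and 4, and 0.997 between those 2, and it enters both HGMT against GMT and DMT against GMT.

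Cell type markers moved with the groups. A list of cardiomyocyte genes averaged 2.34 to 2.48 above the array median (log2) in NGMT and 2.55 to 2.78 in GMT of set 1, against -0.17 to -0.06 in 0F, and 10 of its 11 tested genes rose in GMT cells. The fibroblast list averaged 4.53 to 4.79 in NGMT and 4.30 to 4.42 in GMT, against 5.14 to 5.19 in 0F, so fibroblast genes remained well above the median in the reprogrammed cells. The adipocyte list averaged 0.24 to 0.41 in NGMT and 0.25 to 0.30 in GMT, against 4.95 to 5.10 in 0F, and all 9 tested adipocyte genes fell in GMT cells. The macrophage list averaged -0.48 to -0.41 in NGMT and -0.48 to -0.33 in GMT, against 1.55 to 2.10 in 0F. The mesothelial list averaged 2.83 to 2.93 in NGMT and 2.45 to 2.62 in GMT, against -0.39 to -0.18 in 0F. The part of these cell types in the differences from 0F was not tested, and in bulk RNA fewer cells of a type and less RNA per cell cannot be told apart.

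Against fibroblasts without factors (0F), GMT and NGMT cells had more activin subunit, TGF-beta ligand and gremlin RNA, more Smad1, Smad7 and Tgif1, and less Chrdl1 and Id2. In GMT cells 27 of the 35 tested members passed an adjusted p of 0.05, 17 higher and 10 lower, beside 56.5% of all genes tested (34.2% higher and 22.3% lower). In NGMT cells 24 passed, 17 higher and 7 lower, beside 58.2% of all genes (34.9% higher and 23.3% lower). The median member difference was 0.25 in GMT and 0.10 in NGMT, beside 0.05 and 0.04 over all genes tested. At least a 2-fold change was seen for 8 members in GMT, beside 11.4% of all genes, and for 7 in NGMT, beside 10.3%. The comparisons share the 3 arrays of 0F, so they are given side by side and are not independent. The test was limma's moderated test with Benjamini-Hochberg adjustment over all genes, here and below, and differences are log2 ± SE.

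**Figure D1:**
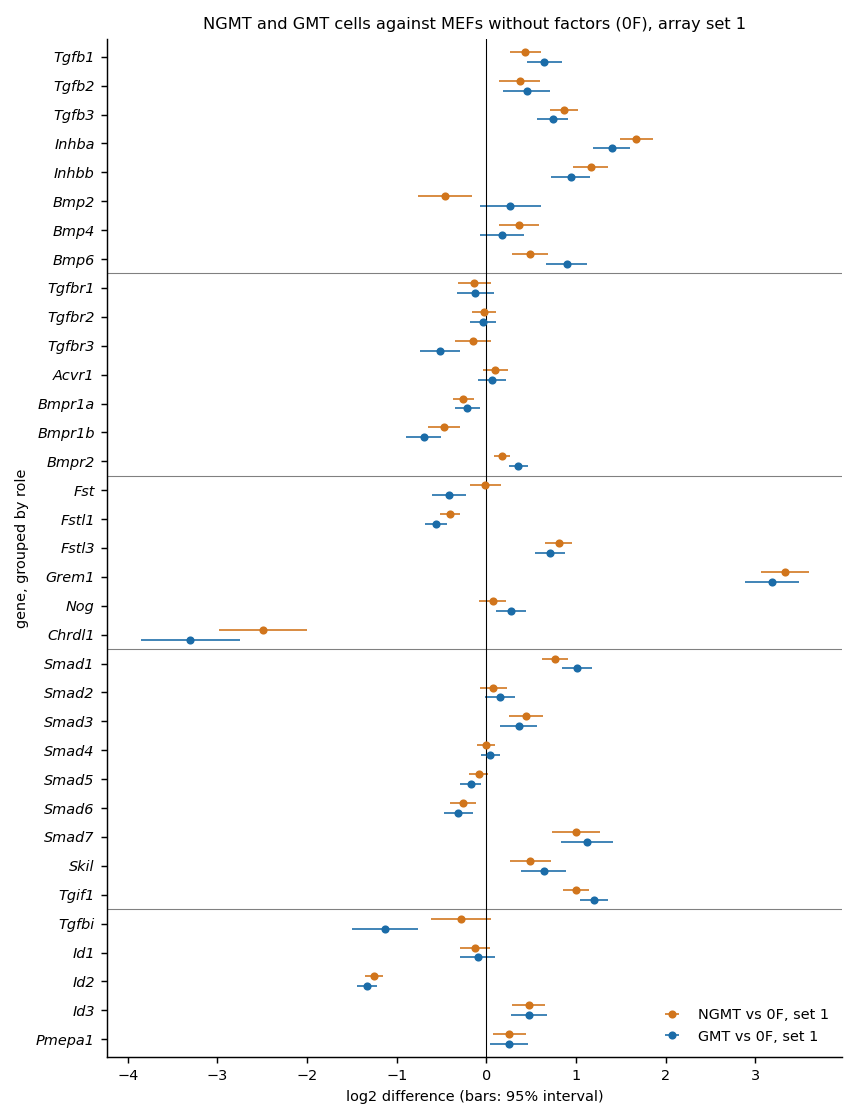
Log2 difference of each tested member in NGMT and in GMT cells against 0F within set 1, with 95% intervals, ordered by role. Grem1 lies above 3 and Chrdl1 below -2 in both combinations, and most ligands lie to the right of 0.

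Among the ligands, none of the 8 tested fell in GMT cells, 6 rose and 2 were not called; in NGMT cells 7 rose and 1 fell. Inhba, the subunit of activin A, had a log2 signal of 11.30, 11.43 and 11.23 in NGMT and 11.15 and 10.96 in GMT, against 9.76, 9.65 and 9.54 in 0F. All NGMT and GMT arrays lay above all 0F arrays, and the difference was 1.67 ± 0.09 in NGMT (adjusted p = 7.54e-14) and 1.40 ± 0.10 in GMT (adjusted p = 1.67e-11). Inhbb, the subunit of activin B, was at 8.72, 8.73 and 8.68 in NGMT and 8.49 and 8.49 in GMT, against 7.45, 7.58 and 7.61 in 0F. Its groups did not overlap either, with differences of 1.16 ± 0.09 in NGMT and 0.94 ± 0.11 in GMT. Tgfb3, a TGF-beta isoform with a part in palate and heart cushion development, was at 11.09, 11.12 and 10.97 in NGMT and 10.91 and 10.96 in GMT, against 10.20, 10.11 and 10.27 in 0F. It rose by 0.87 ± 0.07 in NGMT and 0.74 ± 0.08 in GMT, beside 0.44 ± 0.08 in NGMT and 0.65 ± 0.09 in GMT for Tgfb1, and 0.37 ± 0.11 in NGMT and 0.45 ± 0.13 in GMT for Tgfb2. Among the BMPs, Bmp6 rose by 0.49 ± 0.10 in NGMT and 0.90 ± 0.11 in GMT, while Bmp4 (0.36 ± 0.11) rose and Bmp2 (-0.46 ± 0.15) fell in NGMT, the Bmp2 call being lost without NGMT replicate 1 (-0.37, adjusted p = 0.0562). Neither was called in GMT against 0F, and the direct test of NGMT against GMT is given below.

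Of the 7 receptors tested, 1 rose, 3 fell and 3 were not called in GMT, and 1 rose, 2 fell and 4 were not called in NGMT. Bmpr2, the BMP type II receptor, rose by 0.17 ± 0.04 in NGMT and 0.36 ± 0.05 in GMT. The BMP type I receptor genes Bmpr1a and Bmpr1b fell. The differences were -0.25 ± 0.06 in NGMT and -0.21 ± 0.07 in GMT for Bmpr1a, and -0.47 ± 0.08 in NGMT and -0.70 ± 0.09 in GMT for Bmpr1b. The Bmpr1a call in GMT was lost without GMT replicate 2 (-0.19, adjusted p = 0.0791). The Bmpr1b values in GMT lay only 0.26 and 0.12 above the array median, so the size of its fall may be limited by background. Tgfbr3, the coreceptor betaglycan, fell by 0.52 ± 0.11 in GMT. The TGF-beta type I receptor gene Tgfbr1 (-0.14 in NGMT and -0.12 in GMT) and the type I receptor gene Acvr1 (0.10 in NGMT and 0.07 in GMT) were not called, here or in any other comparison within a set.

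The secreted antagonists held the 2 members with the widest differences, and these went in opposite directions. Grem1, which encodes the BMP trap gremlin, was at 12.73, 12.64 and 12.55 in NGMT and 12.49 and 12.49 in GMT, against 9.30, 9.02 and 9.60 in 0F. Every NGMT and GMT array lay far above every 0F array, with differences of 3.33 ± 0.13 in NGMT (adjusted p = 1.62e-16) and 3.19 ± 0.14 in GMT (adjusted p = 3.77e-15). Chrdl1, a chordin-like BMP antagonist, was at 8.49, 9.15 and 7.43 in NGMT and 7.33 and 7.77 in GMT, against 10.87, 10.88 and 10.80 in 0F. It was lower on every NGMT and GMT array (-2.49 ± 0.24 in NGMT and -3.30 ± 0.27 in GMT), and the NGMT arrays were spread more widely than the 0F arrays. Fstl3, a follistatin relative that binds activin, rose by 0.81 ± 0.07 in NGMT and 0.71 ± 0.08 in GMT, while Fstl1, a secreted follistatin-like glycoprotein, fell (-0.40 ± 0.05 in NGMT and -0.56 ± 0.06 in GMT). Fst, follistatin itself, fell in GMT (-0.42 ± 0.09). Nog, the BMP antagonist noggin, passed in GMT at 0.27 ± 0.08, but it lay above the array median on only 5 of the 28 arrays, and the call was lost without GMT replicate 1 (0.21).

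Of the 9 SMADs and corepressors, 5 rose in each combination, and 2 fell in GMT and 1 in NGMT. Smad1, a BMP effector, was at 8.49, 8.50 and 8.58 in NGMT and 8.76 and 8.78 in GMT, against 7.80, 7.75 and 7.72 in 0F. The groups did not overlap, with differences of 0.76 ± 0.07 in NGMT and 1.01 ± 0.08 in GMT. Smad7, an inhibitory SMAD, was at 8.19, 8.28 and 8.23 in NGMT and 8.30 and 8.41 in GMT, against 7.17, 7.29 and 7.24 in 0F. It was higher on every NGMT and GMT array, by 1.00 ± 0.13 in NGMT and 1.12 ± 0.14 in GMT, whereas Smad6, the other inhibitory SMAD, fell (-0.26 ± 0.07 in NGMT and -0.31 ± 0.08 in GMT). Tgif1, a homeodomain corepressor of SMAD2 and SMAD3, was at 10.75, 10.75 and 10.93 in NGMT and 11.00 and 11.02 in GMT, against 9.74, 9.82 and 9.88 in 0F. It rose by 1.00 ± 0.07 in NGMT and 1.20 ± 0.08 in GMT, and the corepressor Skil (SnoN) rose by 0.49 ± 0.11 in NGMT and 0.64 ± 0.12 in GMT. Smad3, an effector of TGF-beta and activin, rose by 0.44 ± 0.09 in NGMT and 0.36 ± 0.10 in GMT. Its partner Smad2 (0.08 in NGMT and 0.16 in GMT) and the common mediator Smad4 (0.05 in GMT) were not called.

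The target genes moved in both directions. Id2, a helix-loop-helix inhibitor induced by BMPs in many cells, was at 10.21, 10.11 and 10.20 in NGMT and 10.05 and 10.13 in GMT, against 11.47, 11.39 and 11.41 in 0F. It fell with no overlap (-1.25 ± 0.05 in NGMT and -1.33 ± 0.06 in GMT), while Id3, a gene of the same family, rose by 0.47 ± 0.09 in NGMT and 0.48 ± 0.10 in GMT. Tgfbi, a matrix protein induced by TGF-beta, was at 10.21, 10.00 and 9.31 in NGMT and 9.14 and 8.84 in GMT, against 10.12, 10.06 and 10.19 in 0F. It fell in GMT by 1.13 ± 0.18 (adjusted p = 8.4e-06), and in NGMT, where the replicates ranged widely, the difference of -0.28 was not called. Pmepa1, a TGF-beta-induced feedback inhibitor, rose by 0.26 ± 0.09 in NGMT and 0.25 ± 0.10 in GMT, calls that were lost without 0F replicate 2 and, in each group, without some of its own arrays. Id1 was not called (-0.13 in NGMT and -0.10 in GMT). With all arrays pooled after quantile normalization, without a set term, 4 of the differences from 0F turned round and were not called: Tgfbi (0.19), Fst (0.23) and Nog (-0.14) in GMT and Bmp4 (-0.51) in NGMT.

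**Figure D2:**
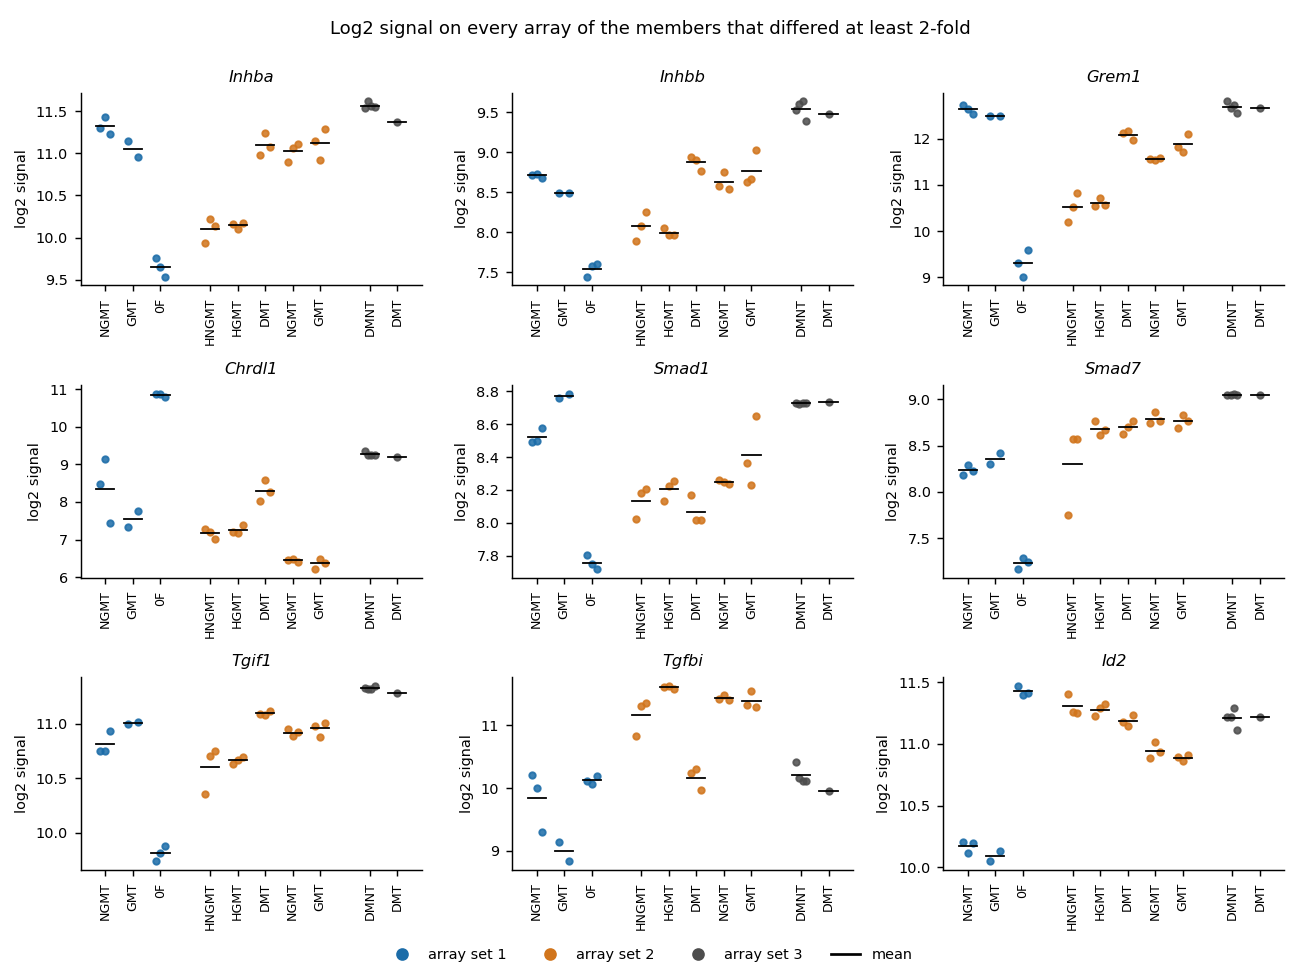
Log2 signal of 9 members on every array, by group and array set, with a bar at each mean. Grem1 and Inhba are high on all GMT and NGMT arrays of set 1 against 0F, and lower on HGMT and HNGMT arrays than on the GMT and NGMT arrays of set 2.

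Chrdl1, the member that fell most in both combinations, had no promoter window. The palindrome GGCGCC is a core of SMAD1 and SMAD5 binding elements in BMP-responsive genes. The promoters of Grem1, which rose, and Id2, which fell, are shown because each holds 1 copy of it. They are RefSeq sequences of GRCm38.p6, from 250 bases before to 50 after the gene start, read on the minus strand for Grem1 (chr2:113758599-113758898) and Id2 (chr12:25096043-25096342). Capitals mark GGCGCC and the E-box CANNTG, sought on both strands.
Grem1: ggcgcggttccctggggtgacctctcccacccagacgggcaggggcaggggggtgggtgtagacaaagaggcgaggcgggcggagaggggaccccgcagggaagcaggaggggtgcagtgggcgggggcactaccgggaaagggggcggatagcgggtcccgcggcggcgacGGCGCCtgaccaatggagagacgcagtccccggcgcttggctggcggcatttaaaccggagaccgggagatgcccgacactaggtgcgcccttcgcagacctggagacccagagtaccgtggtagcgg
Id2: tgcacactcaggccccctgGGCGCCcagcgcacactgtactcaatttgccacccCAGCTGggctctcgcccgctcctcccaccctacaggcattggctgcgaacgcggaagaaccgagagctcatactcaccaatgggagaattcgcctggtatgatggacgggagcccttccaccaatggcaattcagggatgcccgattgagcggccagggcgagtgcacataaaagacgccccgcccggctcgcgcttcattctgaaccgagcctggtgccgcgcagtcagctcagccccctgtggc
Id2 held an E-box as well and Grem1 held none. GGCGCC was present in 11.9% of 32851 promoter windows of all genes, and in 7 of the 23 members with a window in the table (Bmpr1a, Bmpr2, Grem1, Id2, Smad5, Tgfbi and Tgfbr1). Some genes have several windows. Bmpr1a, Id2, Smad5 and Tgfbi were lower in GMT than in 0F, while Bmpr2 and Grem1 were higher, so members with the motif moved both ways. Not all of these calls held. Without GMT replicate 2 the Smad5 difference went from -0.17 to -0.12 and was not called, and the limits for Bmpr1a and Tgfbi are given above. A match of letters is no evidence of binding.

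Addition of NKX2.5 to GMT was compared in 2 sets. In set 1 (3 NGMT arrays against 2 GMT arrays) 5 of 35 members passed, 2 higher and 3 lower, beside 4.7% of all genes tested (2.31% higher and 2.39% lower). Tgfbi was higher by 0.85 ± 0.18 (adjusted p = 0.00474) and Fst by 0.41 ± 0.09 (adjusted p = 0.00826), and Bmp2 (-0.73 ± 0.16), Bmp6 (-0.41 ± 0.11) and Bmpr2 (-0.18 ± 0.05) were lower. The Tgfbi call was lost with the arrays of set 1 alone (adjusted p = 0.0555) and with additive set terms (0.41, adjusted p = 0.194). It was also lost under quantile normalization with no set term (0.22). Fst was at 10.68, 10.71 and 10.74 in NGMT, against 10.29 and 10.31 in GMT, and the Bmp2 values were 7.14, 7.32 and 7.49 in NGMT, against 7.80 and 8.29 in GMT. Neither gene overlapped between the groups, but with 3 arrays against 2 this also held for members that were not called, such as Inhbb and Tgif1. Without GMT replicate 2 none of the members was called, beside 1.3% of all genes. Without NGMT replicate 1 there were 2, beside 2.73% of all genes. Without NGMT replicate 2 there were 3, beside 2.92%, and without NGMT replicate 3 there were 8, beside 5.93%. In set 2 (3 arrays each) limma called 0 members, beside 0.0328% of all genes (0.00819% higher and 0.0246% lower). There 3 members had an unadjusted p under 0.05, beside 367 of the 12211 genes tested. The member intervals in set 2 ran from -0.59 to 0.58. The set 2 difference minus the set 1 difference was not called for any member, beside 0.639% of all genes. It had an unadjusted p under 0.05 for 10 members, beside 849 of the 12211 genes tested. For Tgfbi it was -0.80 ± 0.24 with an adjusted p of 0.185.

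Cells that also received Hand2 had less activin subunit and Grem1 RNA and more Bmp4, Smad6 and Id2. In HGMT, 20 of 35 members passed against GMT, 9 higher and 11 lower, beside 23.9% of all genes tested (11.2% higher and 12.7% lower). In HNGMT, 21 passed against NGMT, 8 higher and 13 lower, beside 28.5% of all genes (7.67% higher and 20.9% lower). The median member difference was -0.05 in HGMT, beside -0.006 over all genes tested, and -0.18 in HNGMT, beside -0.04. The 2 comparisons share no array.

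Inhba was at 10.17, 10.11 and 10.17 in HGMT, against 11.15, 10.92 and 11.29 in GMT, and at 9.93, 10.22 and 10.14 in HNGMT, against 10.90, 11.06 and 11.11 in NGMT. It fell without overlap in both, with differences of -0.97 ± 0.09 in HGMT (adjusted p = 1.49e-08) and -0.93 ± 0.09 in HNGMT (adjusted p = 4.68e-08). Inhbb was at 8.06, 7.97 and 7.96 in HGMT, against 8.62, 8.66 and 9.03 in GMT, and at 7.89, 8.08 and 8.26 in HNGMT, against 8.58, 8.75 and 8.55 in NGMT. Its differences were -0.78 ± 0.09 in HGMT and -0.55 ± 0.09 in HNGMT, again without overlap. Tgfb1 fell (-0.27 ± 0.08 in HGMT and -0.38 ± 0.08 in HNGMT), but the HGMT call was lost without GMT replicate 5 (-0.15, adjusted p = 0.176) and without HGMT replicate 2 (-0.23, adjusted p = 0.0979). Bmp4, a BMP ligand of early heart and limb development, moved the other way and was at 9.91, 10.17 and 10.21 in HGMT, against 9.26, 9.46 and 9.31 in GMT, and at 9.69, 10.27 and 10.02 in HNGMT, against 9.34, 9.51 and 9.25 in NGMT. All Hand2 arrays were above all arrays of their counterparts, and Bmp4 rose by 0.76 ± 0.11 in HGMT (adjusted p = 9.82e-06) and 0.62 ± 0.11 in HNGMT (adjusted p = 1.35e-04).

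The promoters of Inhba and Bmp4 are shown because these ligand genes moved in opposite directions with Hand2, a basic helix-loop-helix factor of a family that binds E-boxes. They are RefSeq windows of GRCm38.p6 of the same length, on the plus strand for Inhba (chr13:16011601-16011900) and the minus strand for Bmp4 (chr14:46390620-46390919), with the same motifs in capitals.
Inhba: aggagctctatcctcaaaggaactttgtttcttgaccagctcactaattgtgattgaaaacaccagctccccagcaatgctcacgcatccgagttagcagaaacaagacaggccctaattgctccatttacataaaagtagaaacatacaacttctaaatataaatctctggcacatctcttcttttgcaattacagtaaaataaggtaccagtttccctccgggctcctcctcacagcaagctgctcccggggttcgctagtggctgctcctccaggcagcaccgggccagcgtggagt
Bmp4: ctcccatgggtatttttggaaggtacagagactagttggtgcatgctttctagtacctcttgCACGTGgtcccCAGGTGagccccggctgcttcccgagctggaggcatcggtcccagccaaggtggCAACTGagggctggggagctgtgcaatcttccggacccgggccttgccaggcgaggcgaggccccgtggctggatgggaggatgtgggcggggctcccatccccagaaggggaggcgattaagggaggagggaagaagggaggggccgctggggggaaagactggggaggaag
The Bmp4 window held 3 E-boxes and the Inhba window none, and neither held GGCGCC. The E-box occurred in 72.3% of all windows and in 11 of the 23 members with a window, and CATCTG, a form of it, in 17.2% of windows and in 3 members (Bmpr1b, Fstl3 and Tgif1). Those 3 members fell in both Hand2 comparisons, while the E-box members Bmp4, Id2, Smad5, Smad6 and Tgfbr2 rose in both. Bmp6, Tgfb2 and Tgfbr1, which also held an E-box, were called in neither. Members with an E-box therefore moved both ways, and a match of letters is no evidence of binding.

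Among the receptors with Hand2, Tgfbr2, the TGF-beta type II receptor, rose by 0.43 ± 0.06 in HGMT and 0.29 ± 0.06 in HNGMT, and Bmpr1a rose by 0.33 ± 0.06 in HGMT and 0.28 ± 0.06 in HNGMT. Bmpr1b fell (-0.43 ± 0.08 in HGMT and -0.50 ± 0.08 in HNGMT). Its HGMT and HNGMT values lay between -0.07 and 0.28 of the array median, so the size of the fall may be limited by background. Grem1 was at 10.55, 10.73 and 10.57 in HGMT, against 11.81, 11.72 and 12.11 in GMT, and at 10.19, 10.52 and 10.83 in HNGMT, against 11.55, 11.53 and 11.59 in NGMT. It fell with no overlap, with differences of -1.26 ± 0.13 in HGMT (adjusted p = 8.1e-08) and -1.04 ± 0.13 in HNGMT (adjusted p = 1.99e-06). The activin-binding Fstl3 fell (-0.26 ± 0.07 in HGMT and -0.44 ± 0.07 in HNGMT). Chrdl1 was higher in HGMT, at 7.21, 7.19 and 7.38 against 6.22, 6.49 and 6.39 in GMT (0.89 ± 0.24), and in HNGMT, at 7.27, 7.21 and 7.02 against 6.45, 6.50 and 6.41 in NGMT (0.72 ± 0.24). The GMT and NGMT values lay below the array median, so their size may be set by background.

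Smad6 was at 8.27, 8.37 and 8.40 in HGMT, against 7.70, 7.94 and 7.79 in GMT, and rose by 0.54 ± 0.07 without overlap. It was at 7.94, 8.16 and 8.28 in HNGMT, against 7.82, 7.94 and 7.76 in NGMT, and rose by 0.29 ± 0.07, with 1 HNGMT array at the level of the highest NGMT array. Smad5, a BMP effector, rose by 0.30 ± 0.05 in HGMT and 0.18 ± 0.05 in HNGMT. The corepressors fell, Skil with differences of -0.44 ± 0.11 in HGMT and -0.39 ± 0.11 in HNGMT, and Tgif1 with -0.29 ± 0.07 in HGMT and -0.32 ± 0.07 in HNGMT. Without GMT replicate 5 the Skil difference in HGMT was -0.26 (adjusted p = 0.0365). Id2 was at 11.22, 11.29 and 11.32 in HGMT, against 10.89, 10.86 and 10.91 in GMT, and at 11.40, 11.25 and 11.25 in HNGMT, against 10.88, 11.01 and 10.94 in NGMT. It rose without overlap by 0.39 ± 0.05 in HGMT and 0.36 ± 0.05 in HNGMT, and Pmepa1 fell (-0.35 ± 0.09 in HGMT and -0.49 ± 0.09 in HNGMT). Tgif1 was at 10.63, 10.67 and 10.69 in HGMT, against 10.98, 10.88 and 11.01 in GMT, and at 10.36, 10.70 and 10.75 in HNGMT, against 10.95, 10.89 and 10.92 in NGMT. Every Hand2 array was below every array of its counterpart for Tgif1. Id1 rose by 0.27 ± 0.08 in HGMT, but that call was lost without GMT replicate 3 (0.19), HGMT replicate 2 (0.23) or HGMT replicate 3 (0.21), and in HNGMT the difference of 0.21 was not called. Smad1 was at 8.14, 8.23 and 8.25 in HGMT, against 8.37, 8.23 and 8.65 in GMT, a difference of -0.21 ± 0.07 that was lost without GMT replicate 5 (-0.10, adjusted p = 0.278), without HGMT replicate 1 (adjusted p = 0.135) or 2 (adjusted p = 0.0632), and with the arrays of set 2 alone (adjusted p = 0.135). Smad7 was at 8.76, 8.61 and 8.67 in HGMT, against 8.69, 8.83 and 8.76 in GMT, where the groups overlapped and the gene was not called. It was at 7.75, 8.57 and 8.57 in HNGMT, against 8.74, 8.87 and 8.77 in NGMT, and this difference of -0.50 ± 0.13 rests largely on HNGMT replicate 1: without that array it was -0.22, still called (adjusted p = 0.00561).

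**Figure D3:**
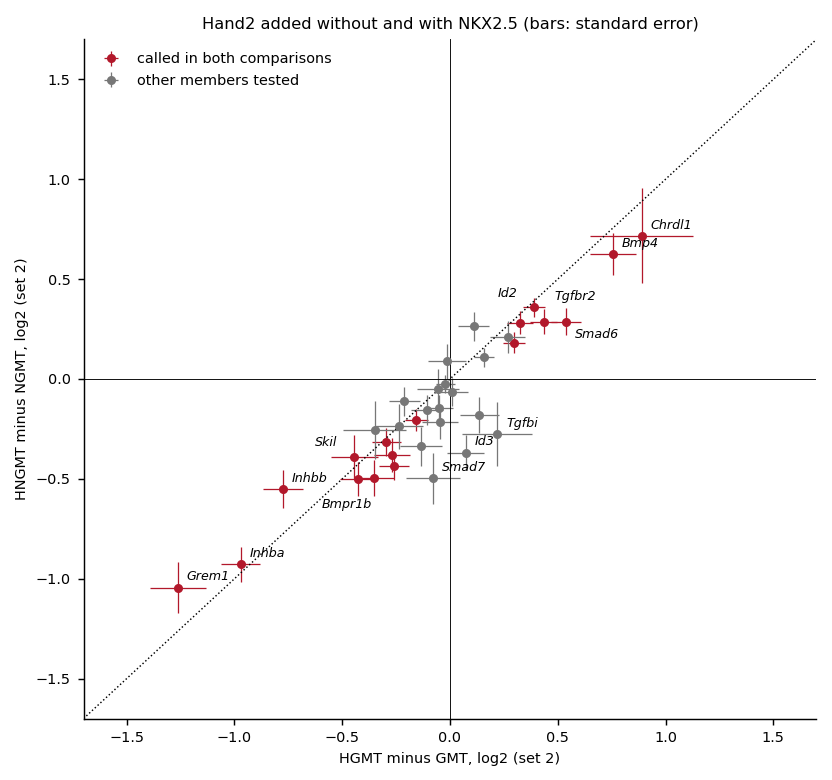
Log2 difference of each tested member in HGMT against GMT (horizontal axis) and in HNGMT against NGMT (vertical axis), with SE; red points were called in both. The 17 members called in both lie on the same side of 0 on each axis, with Grem1, Inhba and Inhbb lowest and Chrdl1 and Bmp4 highest on both axes.

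Both backgrounds called 17 members, all in the same direction, which is 85% of the 20 and 81% of the 21. Over all genes tested 1885 were called in both, 64.6% of 2916 and 54% of 3486. Across the 35 members the 2 sets of differences had a Pearson correlation of 0.92, beside 0.86 across all genes; genes are not independent replicates. The Hand2 difference with NKX2.5 minus that without was called for 0 members and 0 genes by limma, with member intervals from -0.96 to 0.59. It had an unadjusted p under 0.05 for 5 members, beside 1157 of the 12211 genes tested. HNGMT against HGMT, which adds NKX2.5 in the presence of Hand2, had 0 members called beside 0.491% of all genes. At an unadjusted p under 0.05 there were 7 members, beside 3098 of the 12211 genes tested. Without HNGMT replicate 2 the count of called members was 7, beside 19.2% of all genes. Without HNGMT replicate 3 it was 10, beside 25% of all genes, and both fits leave replicate 1 with 1 other array. Without HNGMT replicate 1, 19 members were called against NGMT, beside 25.5% of all genes. Inhba was then at -0.84, Grem1 at -0.88, Bmp4 at 0.78 and Tgif1 at -0.19, while Tgfbr3 (-0.23) and Smad2 (0.13) were no longer called. The Chrdl1 call in HNGMT was lost when any of 5 of the 6 arrays was left out (0.66 to 0.74, adjusted p = 0.0533 to 0.0750), so its place among the 17 is uncertain. The Fstl1 call in HGMT (-0.16) was lost without GMT replicate 3 or 4, and when any HGMT array was left out (adjusted p = 0.0555 to 0.284). The place of Fstl1 among the 17 is therefore uncertain too. The Skil call in HNGMT was lost without NGMT replicate 5 (-0.30, adjusted p = 0.0734). The adipocyte list averaged 1.56 to 2.38 above the array median in HNGMT and 2.01 to 2.33 in HGMT, against 1.17 to 1.53 in NGMT and 1.05 to 1.36 in GMT. The cardiomyocyte list averaged 1.49 to 1.72 in HNGMT and 1.42 to 1.52 in HGMT, against 2.29 to 2.47 in NGMT and 2.08 to 2.22 in GMT. The macrophage list was at 0.60, 0.22 and -0.46 in HNGMT replicates 1, 2 and 3. The part of these cell types in the Hand2 differences was not tested.

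DMT cells, in which MYOCD takes the place of GATA4, had more Tgfb3, Bmp4 and Chrdl1 and less Tgfbi, Bmp2 and Tgfbr3. In DMT, 14 of 35 members passed against GMT in set 2 (3 arrays each), 7 higher and 7 lower, beside 17.3% of all genes tested (9.11% higher and 8.15% lower). Without GMT replicate 4 there were 9, beside 13.7% of all genes. Tgfb3 was at 11.11, 11.24 and 11.42 in DMT, against 10.30, 10.43 and 10.58 in GMT. All DMT arrays were above all GMT arrays, by 0.82 ± 0.07 (adjusted p = 1.16e-08), and Tgfb2 rose by 0.40 ± 0.11, with groups that overlapped. The Tgfb2 difference was 0.63 without GMT replicate 5, and its call was lost without DMT replicate 2 (0.37) and without GMT replicate 3 (0.27) or 4 (0.30). Bmp4 was at 9.96, 9.84 and 9.99 in DMT, against 9.26, 9.46 and 9.31 in GMT (0.59 ± 0.11), and Bmp2 was at 7.36, 7.38 and 7.26 in DMT, against 7.83, 7.56 and 8.43 in GMT (-0.60 ± 0.15). Both BMP genes were separated from GMT without overlap, in opposite directions, and without GMT replicate 5 the Bmp2 difference was -0.36 (adjusted p = 0.0341). Betaglycan, Tgfbr3, fell by 0.60 ± 0.10.

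Chrdl1 was at 8.03, 8.58 and 8.27 in DMT, against 6.22, 6.49 and 6.39 in GMT, where it lay below the array median, and the difference was 1.93 ± 0.24 (adjusted p = 1.47e-06). Tgfbi was at 10.23, 10.30 and 9.97 in DMT, against 11.32, 11.55 and 11.29 in GMT, and fell by 1.22 ± 0.16 (adjusted p = 3.59e-06). Of the 9 SMADs and corepressors, Smad1 was the only one called, at 8.17, 8.02 and 8.02 in DMT, against 8.37, 8.23 and 8.65 in GMT (-0.35 ± 0.07). Smad7 was at 8.63, 8.70 and 8.76 in DMT, against 8.69, 8.83 and 8.76 in GMT, and the groups overlapped. Grem1 was at 12.12, 12.16 and 11.98 in DMT, against 11.81, 11.72 and 12.11 in GMT, and Inhba was at 10.98, 11.24 and 11.07 in DMT, against 11.15, 10.92 and 11.29 in GMT. These 2 genes overlapped between the groups and were not called. Id2 rose by 0.30 ± 0.05, with 11.17, 11.15 and 11.23 in DMT. The smooth muscle list rose with MYOCD, a known activator of smooth muscle genes, with 5 of its 6 tested genes called and a median difference of 2.32, and the adipocyte list averaged 0.25 to 0.48 in DMT, against 1.05 to 1.36 in GMT. The mesothelial list averaged 0.11 to 0.27 in DMT, against 0.63 to 0.85 in GMT, with 1 of 8 genes higher and 4 lower, and the cardiomyocyte list 2.68 to 2.85 in DMT, against 2.08 to 2.22 in GMT, with 5 of 11 higher and 4 lower. Their part in the member differences was not tested.

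Addition of NKX2.5 to DMT was compared in set 3, where 4 DMNT arrays stood against the DMT replicate 4 array. Limma called 0 members, beside 0.0655% of all genes (0.0573% higher and 0.00819% lower), and 3 had an unadjusted p under 0.05. With 1 DMT array the test takes its spread from the other groups, and the member intervals ran from -0.60 to 0.83. Inhba was at 11.54, 11.62, 11.57 and 11.55 in DMNT, against 11.38 in DMT. Grem1 was at 12.81, 12.68, 12.73 and 12.57 in DMNT, against 12.66 in DMT, which lay inside the DMNT range. Bmp4 was at 10.61, 10.64, 10.88 and 10.61 in DMNT, against 10.15 in DMT. Smad7 was at 9.04, 9.05, 9.06 and 9.04 in DMNT, against 9.04 in DMT. Tgfbi was at 10.42, 10.17, 10.12 and 10.12 in DMNT, against 9.95 in DMT, which was below all 4 DMNT arrays.

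**Figure D4:**
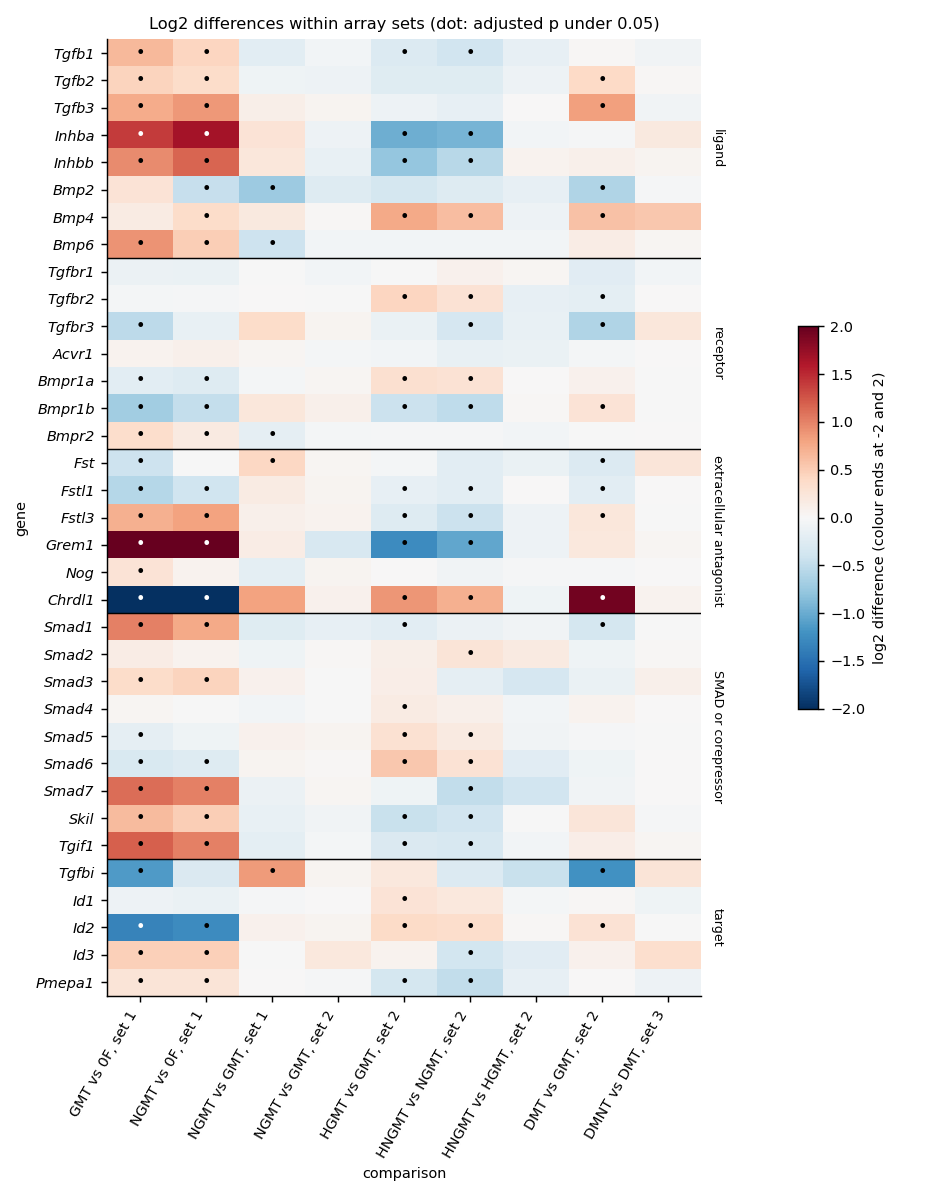
Log2 difference of 35 members in 9 within-set comparisons, by role, with a dot where the adjusted p was under 0.05 and colours ending at 2 in either direction. The columns against 0F carry most dots, and the columns for NKX2.5 in set 2, with Hand2 and in set 3 carry none.

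The combinations of sets 2 and 3 had no 0F array beside them, and were set against 0F through the shared groups, in a fit with a group term and a set term. That fit assumes that the difference between sets is the same for every group. Set 3 joins the other sets only through its 1 DMT array, so every DMNT value against 0F rests on that array. On that basis 20 members passed in DMNT, 15 higher and 5 lower, beside 41.4% of all genes (26.4% higher and 15% lower). In DMT 29 passed, 17 higher and 12 lower, beside 56.4% (34.6% higher and 21.8% lower). In HNGMT 21 passed, 13 higher and 8 lower, beside 49.7% (26.5% higher and 23.2% lower). In HGMT 22 passed, 17 higher and 5 lower, beside 51.1% (29.9% higher and 21.2% lower). Grem1 was higher than in 0F in every combination, by 3.69 ± 0.26 in DMNT, 3.65 ± 0.18 in DMT, 2.08 ± 0.18 in HNGMT and 2.18 ± 0.18 in HGMT. Inhba was higher by 1.77 ± 0.19 in DMNT, 1.58 ± 0.13 in DMT, 0.58 ± 0.13 in HNGMT and 0.63 ± 0.13 in HGMT. Under quantile normalization with no set term Grem1 kept its call in each, at 2.74 in DMNT, 2.58 in DMT, 1.03 in HNGMT and 1.14 in HGMT, while the Inhba value in HNGMT was 0.28 and not called (adjusted p = 0.0930). Id2 was lower, with differences of -1.04 ± 0.09 in DMNT, -1.03 ± 0.06 in DMT, -0.91 ± 0.06 in HNGMT and -0.93 ± 0.06 in HGMT. Without a set term the Id2 calls in HNGMT and HGMT were lost, at -0.34 each. Tgfb3 was higher by 1.54 ± 0.14 in DMNT and 1.60 ± 0.09 in DMT.

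A wider list of the pathway, with 70 genes measured and 53 tested, followed the same comparisons. Of the 53, in NGMT against 0F 25 rose and 14 fell, beside 58.2% of all genes called, and in GMT 24 rose and 14 fell, beside 56.5%. Acvr1c, the activin-like receptor ALK7 known from fat tissue, fell (-3.41 in NGMT and -3.36 in GMT), beside the fall of the adipocyte list. Itgb8, an integrin subunit that activates latent TGF-beta, rose by 2.88 in NGMT and 2.79 in GMT, and the BMP-family ligand gene Gdf6 rose by 2.49 in NGMT and 2.11 in GMT. In GMT the BMP-family gene Gdf10 fell by 2.75 ± 0.26, and in NGMT Lrrc32 rose by 2.29 ± 0.08. With Hand2, 9 rose and 6 fell in HGMT, beside 11.2% of all genes higher and 12.7% lower, and 2 rose and 16 fell in HNGMT, beside 7.67% higher and 20.9% lower. The 4 with the largest called differences in HGMT were Gdf6 (0.68 ± 0.15), the BMP ligand gene Bmp5 (-0.54 ± 0.16), the decoy receptor gene Bambi (0.52 ± 0.06) and Inha (-0.45 ± 0.12), the inhibin alpha subunit. In HNGMT they were Inha (-0.66 ± 0.12), Lrrc32 (-0.59 ± 0.08), which tethers latent TGF-beta to the cell surface, Ltbp4 (-0.55 ± 0.11), a latent TGF-beta binding protein, and Bambi (0.48 ± 0.06). In DMT against GMT 9 rose and 10 fell, beside 9.11% of all genes higher and 8.15% lower, led by Hey1 (0.83 ± 0.08), a transcriptional repressor downstream of Notch and BMP signals, and Ccn2 (0.81 ± 0.11), a matrix-associated TGF-beta target. In NGMT against GMT of set 1 there were 3 higher and 1 lower, beside 4.7% of all genes called, the lower being the BMP-family gene Bmp3 (-1.13 ± 0.13).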

How the data were processed

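RNA was measured on 28 one-colour arrays with 35556 probe sets. The deposited values are log2 signals between 3.76 and 14.5; MAS5 is the only tool per the submitters' processing notes, with no version, and how probes were summarized is not given in these sources. The values were used as the authors deposited them. Probe sets were named from the platform annotation (21789 had 1 symbol, 1621 had more than that and were left out, as were 12146 unnamed probe sets), and the probe set of highest mean stood for a gene, which gave 19938 genes. Genes above the array median on at least 3 arrays were tested (12211).

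The members and the gene lists were chosen with earlier results of these data known. By rule, values on every array are given for members with at least a 2-fold difference and an adjusted p under 0.05 in a comparison within a set (9 members), and the other members by counts and examples; the values of Tgfb3, Bmp2, Bmp4, Fst and Smad6 on single arrays, and further examples, were added after they were seen. Up to 4 genes of the wider list are named per comparison, the called ones with the largest differences. Arrays were put in 3 sets by the distance between their sorted values, at most 0.0486 within a set and at least 0.135 between sets. The main fit, limma 3.58.1 in R 4.3.3 with a mean for each group in each set (10 means, 18 residual degrees of freedom) and a trended prior, covered all arrays, so every comparison shares 1 estimate of the spread. Combinations without a 0F array in their set were compared with 0F by a fit of group and set as additive terms. P-values were adjusted by Benjamini-Hochberg over all genes tested, with a threshold of 0.05. Alternatives were quantile normalization, median centring, other filters, other set terms, the arrays of a set alone, a replicate block and leaving out each array. The number of arrays limits the precision. The fit was tested on simulated data. Promoter windows came from the RefSeq table of GRCm38.p6.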

Additional observations from a re-analysis of the deposited data

Results flagged for a closer look

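Only DMNT, with 4 arrays in 1 set, was large enough to look for an array far from the rest. In 10 of the 36 members the gap of the highest or lowest DMNT array to its neighbour, as a share of the group's range, passed Dixon's 95% critical value; chance flags about 1 in 20 groups. The share was 0.887 for Bmp4, where replicate 3 was at 10.88 and the others at 10.61 to 10.64, 0.984 for Tgfbr2, 0.907 for Fst and 0.856 for Tgfbr1. It was 1 for Bmpr2, Nog, Chrdl1, Smad1, Smad4 and Smad5, where the other 3 arrays held identical values, so for these genes a very small range passes: Smad5 was at 10.25 on replicate 4 and at 10.26 on the others. Replicate 3 was the far array for Bmp4, Tgfbr2 and Fst, replicate 1 for Tgfbr1, Bmpr2 and Chrdl1, replicate 2 for Nog and Smad1, and replicate 4 for Smad4 and Smad5.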

How the results depend on the processing

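Over settings other than leaving out an array, 1180 of 1237 member values kept their direction and side of the threshold, 52 lost the call, 1 gained it and 4 reversed. All 4 reversed under quantile normalization with no set term and were not called there: Fst (0.23), Nog (-0.14) and Tgfbi (0.19) in GMT and Bmp4 (-0.51) in NGMT, each against 0F. The cause was not tested. Leaving out an array kept 1287 of 1355, with 67 losing and 1 gaining the call. Over settings other than leaving out an array, member counts ran from 19 to 29 for GMT against 0F (27 as reported), 21 to 27 for NGMT against 0F (24), 15 to 20 for HGMT against GMT (20) and 17 to 23 for HNGMT against NGMT (21); leaving out an array gave 24 to 27, 23 to 24, 16 to 20 and 19 to 24 in the same order. For NGMT against GMT in set 1 (5 as reported) the count was 2 with additive set terms, 0 with quantile normalization and no set term, 3 with a replicate block, and 0 to 8 when an array was left out. In set 2 (0) it was 2 with additive terms. For DMT against GMT (14) it was 9 with the arrays of set 2 alone, beside 1575 of all 12211 genes. When an array was left out it was 9 to 15, beside 1663 to 2158 genes. Leaving out an array gave 0 to 10 for HNGMT against HGMT (0) and 0 to 2 for the difference between sets (0).

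Counts over all genes moved by over 1.5 times for HNGMT against HGMT (60 as reported, 1 to 138 over the settings, 2343 without HNGMT replicate 2 and 3058 without HNGMT replicate 3), NGMT against GMT in set 1 (574; 199 additive, 4 with no set term and 159 without GMT replicate 2) and in set 2 (4; 1 to 199 over the settings), HNGMT against NGMT (3486; 2145 with set 2 alone), DMNT against DMT (8; 615 with set 3 alone, where identical values give variances of 0), DMNT against 0F (5060; 7787 with no set term) and the difference between sets (78; 27 with the block, 23 to 179 when an array was left out).

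Whether replicate numbers pair the arrays is not settled. Deviations of arrays with the same title number correlated at -0.14 to 0.41 in set 1 (over 0.1 in 3 of 7 pairs). In set 2 the range was -0.26 to 0.30 by title number (over 0.1 in 4 of 14 pairs). By the description's number it was -0.26 to 0.37 in set 2 (over 0.1 in 9 of 30 pairs). Arrays with different numbers were not compared, so these correlations cannot exclude pairing. With the title number as a block 27 members were called for GMT and 24 for NGMT against 0F, and 0 for NGMT against GMT in set 2 and HNGMT against HGMT. With the description's number 20 were called for HGMT against GMT, 22 for HNGMT against NGMT, 14 for DMT against GMT and 0 for NGMT against GMT and HNGMT against HGMT. The title block was not used for the other comparisons, whose groups share fewer than 2 numbers, and DMNT against DMT could not be fitted without its DMT array. Dim members (Nog, Chrdl1 in set 2, Bmpr1b, Bmp7) are limited by signal near background, and set 3 by its identical values.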
